A study of Mus musculus with 9 samples.

Results

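The data presented here are the expression levels of 34 genes of neutrophil granules and neutrophil maturation in the mouse tibia. The genes were taken by their symbols from a table of 18272 genes, in which all 34 were found, and all 34 passed the filter on low counts. They were divided by their known roles into 6 primary genes (*Elane*, *Mpo*, *Prtn3*, *Ctsg*, *Ms4a3* and *Gfi1*), 15 secondary genes (*Cebpe*, *Ngp*, *Camp*, *Ltf*, *Lcn2*, *Chil3*, *Ly6g*, *Fcnb*, *Cd177*, *Pglyrp1*, *Anxa1*, *Itgb2l*, *Hp*, *Olfm4* and *Serpinb1a*) and 13 late genes (*S100a8*, *S100a9*, *Retnlg*, *Csf3r*, *Padi4*, *Ltb4r1*, *Fpr1*, *Fpr2*, *Lrg1*, *Mcemp1*, *Wfdc21*, *Ifitm6* and *Hdc*). RNA was sequenced from the tibia of each of 9 young adult female C57BL/6J mice, 3 in each group. NGT mice had normal glucose tolerance, received no streptozotocin and are labelled as given saline. T1D mice were made diabetic with a single injection of streptozotocin, which kills the pancreatic cells that make insulin, and were then given saline. Lira mice had the same streptozotocin injection and were given liraglutide, a drug that activates the receptor of the incretin GLP-1. The labels give 8 weeks of liraglutide for Lira mice 1 and 2 and 9 weeks for Lira mouse 3. The methods state the same duration for the whole group, and whether the label of Lira mouse 3 is right is not known. Streptozotocin diabetes is a chemical model without the autoimmune attack of human type 1 diabetes.

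Neutrophils are made in the bone marrow, and their granules are filled in a fixed order. Promyelocytes make the enzymes of the primary granules, myelocytes and metamyelocytes make the antimicrobial proteins of the secondary and tertiary granules, and mature cells gain the receptors and cytosolic proteins with which they leave the marrow and respond to infection. The transcripts of the granule proteins are largely lost as the cell matures, so the balance of primary to late transcripts is commonly read as a sign of the stage of the cells present.

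Of the 34 genes, 33 varied widely between mice of the same group, most of them together, and *Lrg1* did not. Their summed level was 3258, 75.5 and 638 CPM (counts scaled to a library size common to all mice, adjusted by the TMM method) in NGT mice 1, 2 and 3. It was 1963, 152 and 1949 CPM in T1D mice 1, 2 and 3. It was 1109, 212 and 6755 CPM in Lira mice 1, 2 and 3. The mouse numbered 2 was the lowest of each group, and every group's range overlapped both others. In Lira mouse 3 the 34 genes took 0.758% of all counts (exact 95% interval 0.754 to 0.762%), and in NGT mouse 2 they took 0.00674% (0.00632 to 0.00717%). These intervals cover counting error only.

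Single genes followed the same order. Lira mouse 3 had the highest level of 32 of the 34 genes, whereas it had the highest level of 19.9% of all tested genes. NGT mouse 2 had the lowest level of 31 genes, against 15.04% of all tested genes. For 32 genes mouse 2 was the lowest of its group in all 3 groups, against 12.2% of all tested genes. In NGT mouse 2, 11 of the 34 genes had a count of 0, and 20 had 3 counts or fewer. The limit set by a 0, taken as 3 counts, lay between 0.163 and 0.237 CPM in the 9 libraries. In whole tibia, fewer neutrophils and less of each transcript per neutrophil cannot be told apart.

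**Figure D1:**
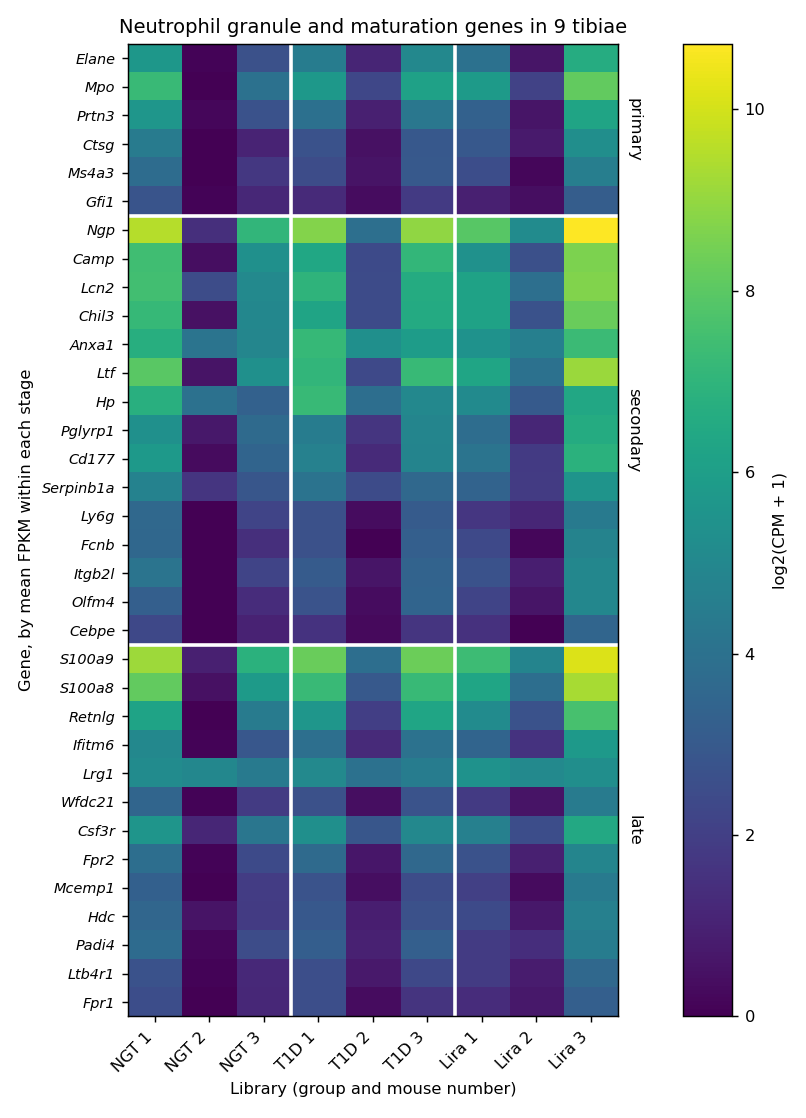
Levels of the 34 genes as log2(CPM + 1), with 1 row per gene in order of mean FPKM within its stage and 1 column per mouse, NGT, T1D and Lira from left to right. The columns of NGT mouse 2, T1D mouse 2 and Lira mouse 2 are dark in nearly all rows and that of Lira mouse 3 is bright, while the row of *Lrg1* keeps nearly the same shade throughout.

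The libraries held between 13086343 and 16528372 counts. The tissue was labelled tibia, and the methods describe removal of the surrounding muscle. A list of 19 skeletal muscle genes nonetheless took 14.02% to 26.1% of the counts. A list of 12 osteoblast genes summed to 210.99 CPM in NGT mouse 2, where 3 of the 12 were at 0, and to between 429 and 5845 CPM in the other mice. The muscle list was lowest in T1D mouse 1 (112556 CPM), NGT mouse 1 (146722 CPM) and Lira mouse 3 (156571 CPM), and between 228243 and 295747 CPM in the other 6 mice. The 16 tested erythroid genes summed to 6737, 395 and 2614 CPM in NGT mice 1 to 3, to 1984, 497 and 19315 CPM in T1D mice 1 to 3 and to 4229, 838 and 29665 CPM in Lira mice 1 to 3. As for the neutrophil genes, mouse 2 was the lowest of each group. The part of muscle and of red marrow content in the results below was not tested.

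Among the primary genes, *Elane* (gene 50701), which encodes neutrophil elastase, had the highest level per transcript length, with a mean of 30.3 FPKM over the 9 mice. Its level was 50.4, 0.0773 and 5.38 CPM in NGT mice 1 to 3, 21.5, 1.18 and 30.9 CPM in T1D mice 1 to 3, and 14.8, 0.545 and 98.1 CPM in Lira mice 1 to 3. Within T1D mice alone the highest was 26.2 times the lowest. *Mpo* (17523), which encodes myeloperoxidase, had nearly the same mean of 30.2 FPKM. It stood at 151, 0 and 15.2 CPM in NGT mice, 50.9, 3.86 and 69.6 CPM in T1D mice and 56.0, 3.35 and 281 CPM in Lira mice. *Prtn3* (19152), which encodes proteinase 3, stood at 49.0, 0.155 and 5.54 CPM in NGT mice, 14.4, 0.917 and 17.9 CPM in T1D mice and 8.92, 0.545 and 76.5 CPM in Lira mice. In each of these 3 genes the NGT mice covered the whole range of the T1D mice.

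*Ctsg* (13035), which encodes the granule protease cathepsin G, was at 20.8, 0 and 1.11 CPM in NGT mice, 5.54, 0.393 and 6.74 CPM in T1D mice and 6.78, 0.701 and 38.3 CPM in Lira mice. The remaining primary genes were lower per length. *Ms4a3*, which marks granulocyte and monocyte progenitors, had a mean of 6.77 FPKM, and *Gfi1*, a repressor needed for commitment to the neutrophil line, had a mean of 0.978 FPKM. The 6 primary genes together had 4 counts in NGT mouse 2 and 9144 counts in Lira mouse 3.

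The secondary genes included the most abundant granule transcript. *Ngp* (18054), the neutrophilic granule protein, had a mean of 402 FPKM. It stood at 738, 1.70 and 130 CPM in NGT mice 1 to 3, 426, 14.1 and 493 CPM in T1D mice 1 to 3 and 247, 35.5 and 1684 CPM in Lira mice 1 to 3. Within the NGT group the highest mouse was thus 433 times the lowest. *Camp* (12796), which encodes the antimicrobial cathelicidin, was at 171, 0.309 and 40.9 CPM in NGT mice, 81.5, 4.32 and 136 CPM in T1D mice and 41.4, 5.14 and 385 CPM in Lira mice. *Lcn2* (16819), which encodes the iron-siderophore binding lipocalin 2, was at 179, 4.56 and 31.7 CPM in NGT mice, 124, 4.52 and 96.9 CPM in T1D mice and 70.3, 14.3 and 405 CPM in Lira mice. *Chil3* (12655), a chitinase-like protein, was at 143, 0.387 and 29.8 CPM in NGT mice, 75.5, 4.52 and 93.5 CPM in T1D mice and 72.2, 5.53 and 310 CPM in Lira mice. The order of the mice was nearly the same in these genes, with Lira mouse 3 and then NGT mouse 1 at the top.

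*Ltf*, the iron-binding lactoferrin, and *Anxa1*, the pro-resolving annexin A1, had means of 54.4 and 54.5 FPKM. *Pglyrp1*, which binds bacterial peptidoglycan, had a mean of 40.0 FPKM and *Cd177*, a surface glycoprotein of neutrophils, a mean of 12.04 FPKM. The other secondary genes with means under 10 FPKM were *Serpinb1a*, an inhibitor of the primary granule proteases (9.35 FPKM), *Ly6g*, the usual surface marker of mouse neutrophils (7.03 FPKM), *Fcnb*, or ficolin B (6.46 FPKM), the integrin gene *Itgb2l* (3.29 FPKM), *Olfm4* (2.77 FPKM) and *Cebpe*, the transcription factor that drives secondary granule genes (2.13 FPKM). *Cebpe* had a count of 0 in NGT mouse 2 and Lira mouse 2, 3 counts in T1D mouse 2 and 178 counts in Lira mouse 3.

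*Hp* and *Anxa1* were the secondary genes least like the others. *Hp* (15439) encodes the hemoglobin-binding haptoglobin, which liver and fat make as well. It was at 109, 14.8 and 8.95 CPM in NGT mice, 147, 13.6 and 30.9 CPM in T1D mice and 33.8, 7.24 and 85.0 CPM in Lira mice, so that T1D mouse 1 and not Lira mouse 3 was the highest. Its correlation with the mean of the other 33 genes over the 9 mice was 0.78 (Pearson's r of log2(CPM + 1)). For *Anxa1* (16952), which many other cells express, this correlation was 0.89. Its level was 106, 16.3 and 29.7 CPM in NGT mice, 146, 39.7 and 59.1 CPM in T1D mice and 42.5, 23.9 and 157 CPM in Lira mice.

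The late genes held the highest levels per length of the whole set. *S100a9* (20202) and *S100a8* (20201) encode the paired calcium-binding proteins of calprotectin, with means of 654 and 464 FPKM. *S100a9* stood at 566, 0.928 and 114 CPM in NGT mice 1 to 3, 309, 13.5 and 313 CPM in T1D mice 1 to 3 and 162, 27.6 and 1141 CPM in Lira mice 1 to 3. *S100a8* stood at 282, 0.387 and 56.3 CPM in NGT mice, 153, 7.07 and 150 CPM in T1D mice and 78.9, 13.6 and 629 CPM in Lira mice. The ratio of *S100a8* to *S100a9* counts was between 0.417 and 0.552 in every mouse, although Lira mouse 3 had 1627 times the *S100a8* level and 1229 times the *S100a9* level of NGT mouse 2, in which the 2 genes had 5 and 12 counts.

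*Retnlg* (245195), a resistin-like protein of mature neutrophils, was at 72.5, 0 and 20.9 CPM in NGT mice, 48.4, 2.95 and 78.0 CPM in T1D mice and 34.9, 5.45 and 193 CPM in Lira mice. *Ifitm6* (213002), of the interferon-induced transmembrane family, was at 31.5, 0.0773 and 6.41 CPM in NGT mice, 13.9, 1.44 and 15.5 CPM in T1D mice and 9.85, 1.95 and 53.4 CPM in Lira mice. *Csf3r*, the receptor for granulocyte colony-stimulating factor, had a mean of 11.4 FPKM and was highest in Lira mouse 3 at 88.2 CPM and lowest in NGT mouse 2 at 1.24 CPM. The receptors for formyl peptides and leukotriene B4 were lower, with means of 7.21 FPKM for *Fpr2*, 2.61 FPKM for *Ltb4r1* and 2.27 FPKM for *Fpr1*. Of the others, *Wfdc21* had a mean of 14.5 FPKM, *Mcemp1* 5.02 FPKM, *Hdc*, which encodes the histamine-forming enzyme, 2.83 FPKM, and *Padi4*, which citrullinates histones, 2.78 FPKM. *Fpr1* and *Fpr2*, and also *Chil3*, *Ly6g*, *Retnlg*, *Ifitm6* and *Wfdc21*, have close paralogues, and the counts divided between such copies are uncertain.

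*Lrg1* (76905), a leucine-rich glycoprotein that neutrophils store and that endothelium and liver also make, was the exception among the 34 genes. It stood at 34.8, 30.2 and 20.2 CPM in NGT mice, 32.1, 15.1 and 21.5 CPM in T1D mice and 42.8, 31.9 and 38.0 CPM in Lira mice. Its SD between mice of the same group was 0.39 on the log2(CPM + 1) scale, whereas the median of the 34 genes was 1.89 and that of all tested genes 0.314. The other 33 genes lay above the 90th percentile of this SD over all tested genes. The correlation of *Lrg1* with the mean of the other genes was 0.41, and after *Hp* and *Anxa1* all other genes reached at least 0.93. These correlations are descriptions over 9 mice, in which all genes share the library.

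The comparison of T1D with NGT mice asks how the diabetic tibia differed from the normal one. A gene was called where it changed by more than 2 times with an adjusted p-value under 0.05 (edgeR, quasi-likelihood, adjusted over 13960 genes by Benjamini-Hochberg). Of the 34 genes 0 were called, and of all tested genes 0.00%. Before adjustment, 0 of the 34 genes had a p-value under 0.05, against 3.95% of all tested genes. DESeq2 and limma also called 0, and in both 0 had an unadjusted p-value under 0.05. In 0 of the 34 genes did the 3 T1D mice lie above or below all 3 NGT mice, against 3.52% of all tested genes for above and 5.08% for below. The median log2 fold change was -0.57 for the primary genes, -0.0015 for the secondary genes and -0.08 for the late genes, against 0.02 for all tested genes. The median standard errors of these log2 fold changes were 1.76, 1.63 and 1.51. For all tested genes the median was 0.298.

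All 6 primary genes had negative log2 fold changes in T1D mice, from -0.07 for *Elane* to -0.80 for *Gfi1*, but 5 of the 6 were positive in limma on log2(FPKM + 1), with a median of 0.21. On the log2(CPM + 1) scale, too, the mean primary level was higher in T1D (2.75 ± 1.57) than in NGT mice (2.41 ± 2.43, SD, n = 3), within the spread of either group. No gene came near the threshold, and the lowest adjusted p-value of the 34 genes was 0.979 (edgeR). For *Elane* the 95% interval of the log2 fold change ran from -4.18 to 4.04, for *Ngp* from -4.02 to 4.22 and for *S100a8* from -4.17 to 3.93. These intervals are those of the unpaired fit. With a replicate block over the 9 libraries the standard errors of the 3 genes were 1.21, 1.08 and 1.14, against 1.80, 1.81 and 1.78 without it. With the block in the 2 groups, a fit that also left out the Lira mice, they were 0.94, 0.75 and 0.80. The labels state no pairs, and the pairs of the block were taken from correlations in these same data. The direction was not settled by these mice. With all mice 13 of the 34 genes had positive log2 fold changes, against 52.1% of all tested genes. Without NGT mouse 1 it was 33 of the 34, with a median of 1.85, and without T1D mouse 2 it was 30, with a median of 0.44. Without NGT mouse 2 it was 3, with a median of -0.61, and without T1D mouse 1 it was 2. In limma on log2(FPKM + 1) with all mice it was 32.

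Same-numbered NGT and T1D mice tended to deviate alike, and their difference had one direction in pair 1 and the other in pairs 2 and 3. The mean log2(CPM + 1) of the primary genes in T1D mice 1, 2 and 3 minus that in NGT mice 1, 2 and 3 was -1.50, 0.88 and 1.62. For the secondary genes the differences were -0.67, 0.91 and 1.41, and for the late genes -0.51, 0.98 and 0.96. The labels do not give same-numbered mice as pairs. In a fit of these 6 mice blocked by replicate number, 32 of the 34 genes had positive log2 fold changes, and 0 were called. In this fit 14.2% of all tested genes had an unadjusted p-value under 0.05, and 1 of the 34 did. This was *Anxa1*, which had a log2 fold change of 0.91 (standard error 0.19) with an unadjusted p-value of 0.00375 and an adjusted p-value of 0.229 in edgeR's quasi-likelihood test.

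Liraglutide was compared with saline in the diabetic mice, and 0 of the 34 genes were called, against 0.00% of all tested genes. *Lrg1* alone had an unadjusted p-value under 0.05, which 3.33% of all tested genes had. With 1 mouse left out, 0 of the 34 genes passed this threshold in 5 of the 9 fits. DESeq2 and limma called 0, with 1 and 0 genes at an unadjusted p-value under 0.05. The log2 fold change of *Lrg1* in Lira against T1D mice was 0.71 (standard error 0.30, 95% interval 0.02 to 1.40). It had an unadjusted p-value of 0.0437 and an adjusted p-value of 0.978 in edgeR's quasi-likelihood test. The lowest Lira mouse (31.9 CPM) lay just below the highest T1D mouse (32.1 CPM), so that the groups overlapped (exact permutation test, two-sided, p = 0.2, where 3 mice against 3 allow no p under 0.1). In 0 of the 34 genes did the groups lie apart, against 3.74% of all tested genes for Lira above and 3.40% for Lira below.

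The fold changes themselves were mostly positive. In Lira against T1D mice 32 of the 34 genes had positive log2 fold changes, against 55.3% of all tested genes, with medians of 1.30 for primary, 1.09 for secondary and 0.85 for late genes. The 2 others were *Hp* (-0.60) and *Anxa1* (-0.13). The largest was that of *Ctsg*, with a log2 fold change of 1.85 (standard error 1.79). This direction turned when 1 library was left out. Without Lira mouse 3, 33 of the 34 genes had negative log2 fold changes with a median of -1.10, and *Lrg1* was the only positive one, at 0.70.

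Lira and NGT mice were compared in the same way, to ask how far the treated diabetic tibia differed from the normal one. Again 0 of the 34 genes were called, against 0.00% of all tested genes, 0 had an unadjusted p-value under 0.05 (0.781% of all tested genes did), and in edgeR 0.999 was the lowest value after adjustment. DESeq2 and limma gave 0 by either criterion. In 0 of the 34 genes did the groups lie apart, against 2.49% of all tested genes for Lira above and 1.78% for Lira below. The median log2 fold changes were 0.96 for primary, 1.05 for secondary and 0.93 for late genes, and 33 of the 34 were positive, against 55.5% of all tested genes. The exception was *Hp* at -0.07. Without Lira mouse 3, 33 of the 34 were negative, with a median of -1.04. The 3 comparisons share groups, so that their fold changes are not independent of each other.

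**Figure D2:**
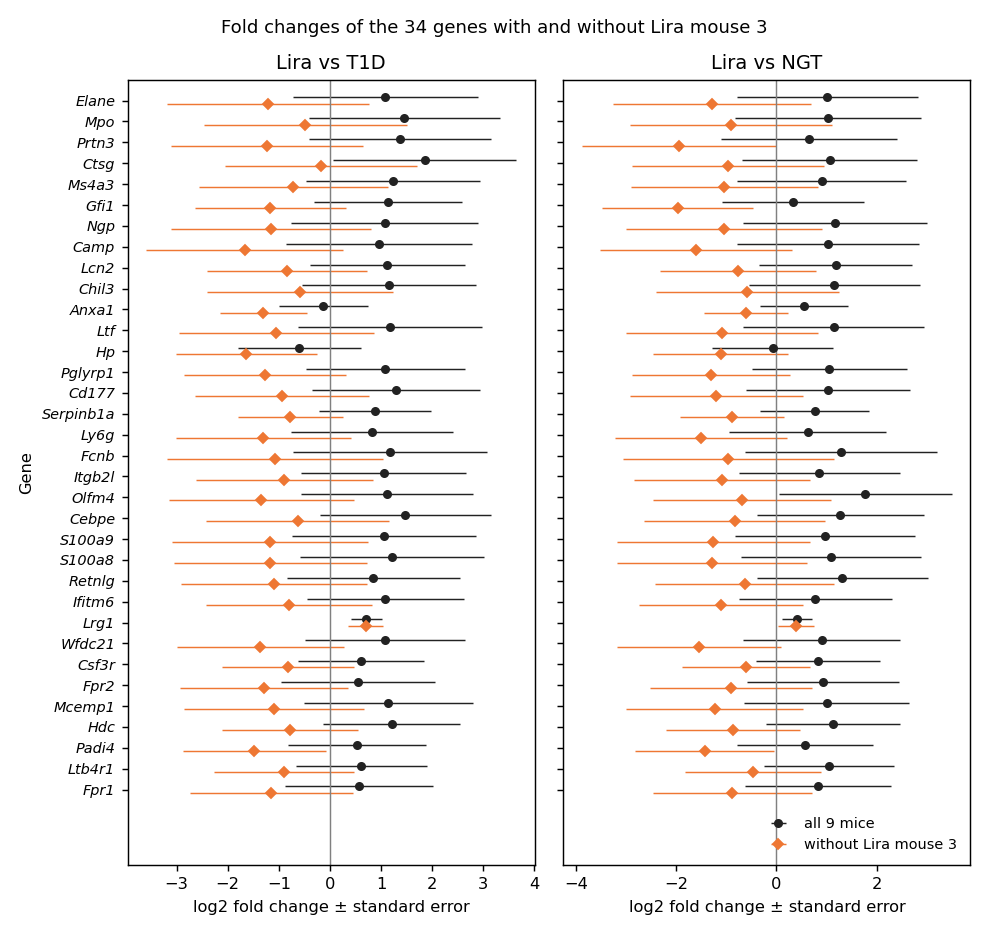
Log2 fold changes of the 34 genes with bars of 1 standard error (edgeR), for Lira against T1D mice on the left and Lira against NGT mice on the right, with all 9 mice (black circles) and without Lira mouse 3 (orange diamonds). Nearly all points lie right of 0 with all mice and left of 0 without Lira mouse 3, and *Lrg1* stays in place with short bars.

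Early granule genes were then compared with mature-cell genes within each mouse. The mean log2(CPM + 1) of the primary genes minus that of the late genes was 0.13, -0.60 and -0.97 in NGT mice 1 to 3, -0.87, -0.70 and -0.30 in T1D mice 1 to 3 and -0.31, -1.21 and -0.03 in Lira mice 1 to 3. The group means were -0.48 ± 0.56 in NGT, -0.62 ± 0.29 in T1D and -0.52 ± 0.61 in Lira mice (SD, n = 3). The groups overlapped, and their means differed by 0.14 or less, which is below the SD of every group. With 1 mouse left out, the difference of Lira minus T1D mice ranged from -0.14 to 0.45 and that of T1D minus NGT mice from -0.38 to 0.16. Secondary minus late genes gave 0.58 ± 0.30 in NGT, 0.66 ± 0.28 in T1D and 0.66 ± 0.37 in Lira mice (SD, n = 3). These differences are compressed in the mice with low levels, since the pseudocount of 1 CPM weighs more there.

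**Figure D3:**
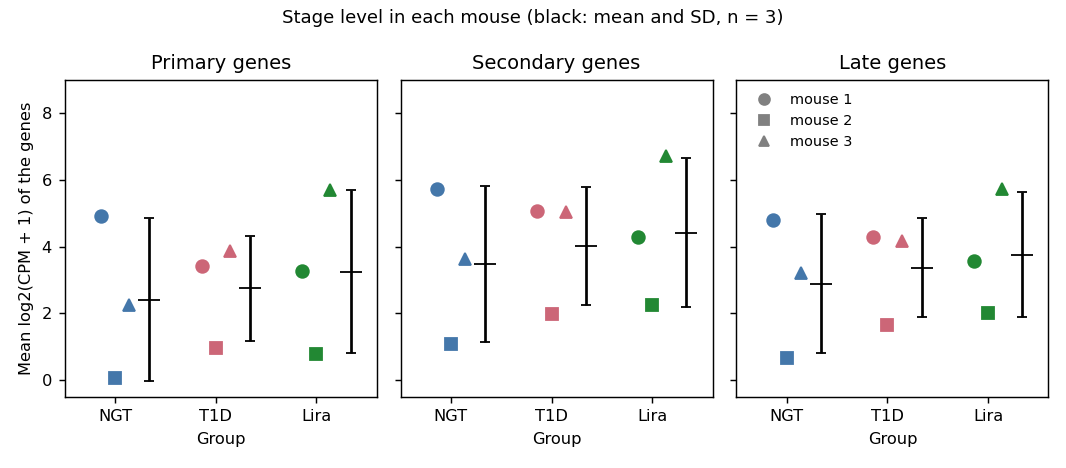
Mean log2(CPM + 1) of the 6 primary, 15 secondary and 13 late genes in each mouse, with circles, squares and triangles for mice 1, 2 and 3 of each group and the group mean and SD (n = 3) in black. The squares are the lowest points of every group in every stage, and the triangle of Lira is the highest point in each panel.

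A ratio of summed counts needs no pseudocount. The 4 granule enzymes *Elane*, *Mpo*, *Prtn3* and *Ctsg* were set against 7 mature-cell genes (*S100a8*, *S100a9*, *Retnlg*, *Csf3r*, *Ltb4r1*, *Fpr1* and *Fpr2*). The enzymes made up 21.5%, 7.89% and 11.2% of the summed counts of both sets in NGT mice 1 to 3, 13.9%, 16.9% and 17.5% in T1D mice 1 to 3 and 21.8%, 8.73% and 19.0% in Lira mice 1 to 3. The group means were 13.5 ± 7.08%, 16.1 ± 1.94% and 16.5 ± 6.89% (SD, n = 3), and the T1D mice lay inside the range of both other groups.

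The intervals around these shares cover the counting of reads in 1 library and not the spread between tibiae. In NGT mouse 1 the share had an exact 95% interval of 20.9 to 22.05% and in NGT mouse 3 of 10.1 to 12.4%. The value of NGT mouse 2 rests on 3 enzyme counts of 38 counts in all, with an interval of 1.66 to 21.4%, which overlaps the interval of every other mouse. Lira mouse 2, with 66 enzyme counts, had an interval of 6.82 to 11.0%, below those of the other Lira mice. The range of the early share within the NGT and Lira groups was wider than the distance between the group means. The ratio of *Ngp* to *S100a9* counts, a secondary against a late gene, lay between 1.04 and 1.83 in the 9 mice.

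**Figure D4:**
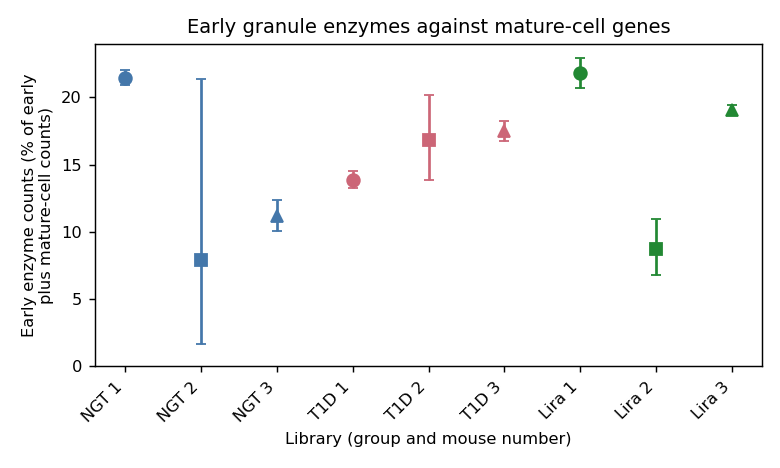
Share of *Elane*, *Mpo*, *Prtn3* and *Ctsg* counts in the sum of these and the 7 mature-cell gene counts, in percent, for each of the 9 mice with exact 95% binomial intervals. The T1D mice lie between 13.9% and 17.5%, and the NGT and Lira mice spread to both sides of them.

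The stages moved together across mice nearly as closely as the genes within a stage did. The median Pearson's r of log2(CPM + 1) between pairs of genes over the 9 mice was 0.970 among primary, 0.959 among secondary and 0.966 among late genes. It was 0.954 between primary and late genes. Without NGT mouse 2 and Lira mouse 3, a pair chosen after the values were seen, these medians and those of the other stage pairs lay between 0.945 and 0.957. The points share library, depth and marrow content.

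The bases before the transcription starts of these genes were searched for short motifs, as a description of the sequences. RefSeq promoter windows of GRCm38.p6 were found for 30 of the 34 genes (32 windows). Stretches with a match are printed below for 2 genes of each stage, chosen after the matches were seen, with the match in capitals and with the bases that GENCODE places in exons left out. *Elane* and *Prtn3*, which lie near each other on chromosome 10, each hold GAGGAA, the core bound by factors such as the myeloid regulator PU.1, starting 85 and 95 bases before the transcription start.
*Elane*, chr10:79886202-79886245, plus strand: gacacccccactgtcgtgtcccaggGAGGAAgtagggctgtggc
*Prtn3*, chr10:79879557-79879610, plus strand: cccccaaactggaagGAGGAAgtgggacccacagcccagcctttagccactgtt
*S100a8*, chr3:90668881-90668940, plus strand (match on the minus strand): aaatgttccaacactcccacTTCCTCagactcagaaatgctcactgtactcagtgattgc
The secondary genes *Ngp* and *Ltf* and the late gene *S100a9* hold TTGCNNAA, a form of the site of the C/EBP family to which Cebpe belongs, and capitals mark it alone here.
*Ngp*, chr9:110419658-110419746, plus strand: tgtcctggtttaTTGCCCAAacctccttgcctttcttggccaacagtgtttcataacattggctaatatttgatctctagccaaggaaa
*Ltf*, chr9:111019122-111019270, plus strand (match on the minus strand): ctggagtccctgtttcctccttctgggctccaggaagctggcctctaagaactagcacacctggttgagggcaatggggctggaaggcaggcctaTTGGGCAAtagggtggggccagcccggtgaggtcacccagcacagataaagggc
*S100a9*, chr3:90695932-90695971, minus strand: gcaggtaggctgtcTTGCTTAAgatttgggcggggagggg

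In the 250 bases before the start, GAGGAA was found on either strand in 17 of the 32 windows (53.1%), in 4 of 7 primary, 9 of 13 secondary and 4 of 12 late windows. Of all 32851 RefSeq windows of this length 23.3% hold it. Its longer form GAGGAAG, which it overlaps, was in 13 windows (40.6%), against 10.6% of all. TTGCNNAA was in 9 windows (28.1%) on either strand, against 9.56% of all, and 6 of the 9 were secondary. The TATA box was searched on the gene's strand as TATAA, in 14 windows (43.8%) against 5255 of the 32851 windows, and as TATAAA, which it overlaps, in 9 windows (28.1%) against 7.59%. These 5 motifs were all that were tried, and a match is a description of the letters and no evidence of binding.

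Other genes of neutrophils were taken from a list of 50, of which 47 were tested. Of these, edgeR called 0 in any comparison, and before adjustment 1, 1 and 2 of them passed 0.05 in T1D against NGT, Lira against T1D and Lira against NGT mice, against 3.95%, 3.33% and 0.781% of all tested genes. *Ctsc* (13032), whose protease cathepsin C activates the primary granule proteases, was at 43.8, 38.6 and 44.2 CPM in NGT mice, 141, 57.1 and 54.5 CPM in T1D mice and 41.5, 45.6 and 43.9 CPM in Lira mice. The T1D mice lay above all others. The log2 fold change of *Ctsc* was 1.00 (standard error 0.34) in T1D against NGT mice and -0.95 (standard error 0.34) in Lira against T1D mice, with unadjusted p-values of 0.0179 and 0.0225 and adjusted p-values of 0.977 and 0.978 in edgeR's quasi-likelihood test. In T1D mouse 1, where *Ctsc* was highest, 14 monocyte and macrophage genes summed to 1216 CPM, against 102 to 417 CPM in the other mice, and their part in this value was not tested. Without T1D mouse 1 the log2 fold changes of *Ctsc* were 0.40 and -0.35.

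*Cebpd* and *Cebpb*, C/EBP factors like *Cebpe*, differed from the granule genes in their order of mice, which *Cebpe* shared (r = 0.96 with the other members). *Cebpd* (12609) was at 33.3, 54.9 and 37.3 CPM in NGT mice, 70.5, 69.8 and 87.4 CPM in T1D mice and 248, 78.4 and 77.8 CPM in Lira mice, with all NGT mice below the others. In T1D against NGT mice its log2 fold change was 0.86 (unadjusted p-value 0.0886, adjusted 0.977 in edgeR). Its log2 fold change in Lira against NGT mice was 1.69 (standard error 0.46), with an unadjusted p-value of 0.00529 and an adjusted p-value of 0.999 in edgeR. Without Lira mouse 1 it was 0.90. *Cebpb* (12608) was at 25.1, 32.5 and 31.7 CPM in NGT mice, 51.4, 28.9 and 30.01 CPM in T1D mice and 59.2, 39.8 and 41.6 CPM in Lira mice. Its log2 fold change in Lira against NGT mice was 0.66 (standard error 0.27), with an unadjusted p-value of 0.0368 and an adjusted p-value of 0.999 in edgeR. Many cells of the tibia express both genes.

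Of the genes outside the 34 with a mean of at least 5 CPM, those most like the primary level over the 9 mice were *Il18rap* (r = 0.992), *F5* (0.992), *Pram1* (0.991), *Ly6c2* (0.989) and *I830127L07Rik* (0.989). Those most like the late level were *Ppbp* (r = 0.996), *Cxcr4* (0.995), *Ly6c2* (0.995), *Mmp8* (0.994) and *I830127L07Rik* (0.989). *Mmp8* encodes neutrophil collagenase, *Cxcr4* the receptor that holds neutrophils in the marrow, and *Ppbp* is a gene of platelets and megakaryocytes. These are Pearson's r of log2(CPM + 1) over 9 mice, chosen as the highest of 10383 genes.

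Gene lists of other marrow cells, and a list of proliferation genes that is not of a cell type, moved with the neutrophil genes. The mean log2(CPM + 1) of 10 megakaryocyte genes correlated with the primary, secondary and late levels at r = 0.98, 0.97 and 0.97 over the 9 mice, that of 16 proliferation genes at 0.98, 0.97 and 0.96, and that of the erythroid genes at 0.94, 0.93 and 0.92. The skeletal muscle list correlated negatively, at -0.67, -0.70 and -0.70. The remaining lists had r between 0.66 and 0.96, and they were other neutrophil, monocyte and macrophage, eosinophil, mast cell and basophil, B cell, T and NK cell, progenitor, osteoblast and osteoclast genes. Without NGT mouse 2 and Lira mouse 3 the eosinophil list had r between 0.34 and 0.36 with the 3 stages, the monocyte and macrophage list between 0.51 and 0.61, and the megakaryocyte list 0.99 with each. In these lists, too, edgeR called 0 genes in any comparison, and most lists held 0 or 1 gene with an unadjusted p-value under 0.05. The highest count was that of the monocyte and macrophage list in T1D against NGT mice, in which 6 of 14 genes had one, all higher in T1D mice, against 3.95% of all tested genes. T1D mouse 1 held the highest sum of this list. Of the 7 tested mast cell and basophil genes 3 had one in the same comparison, higher in T1D mice, and 4 of the 7 had log2 fold changes above 0.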

How the data were processed

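RNA-seq of 9 tibiae (3 NGT, 3 T1D and 3 Lira mice, 1 library per mouse) was analysed, with groups taken from the labels. The authors deposited expected counts per gene, which were not normalized, and FPKM values scaled for gene length and library total. Their paper describes oligo(dT) enrichment and sequencing of DNA nanospheres. The submitters' processing notes name the build mm9. The aligner, counting tool and strand setting are not given in the sources used here. Of the counts, 30.2% were not whole, as when reads are divided between similar genes, and they were rounded. Columns of group averages were not used, and the number of sample columns that matched no sample was 0.

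A minimum of 10 counts in 3 or more libraries kept 13960 of 18272 genes. Counts were fitted in R 4.3.3 with edgeR 4.0.16 (TMM, glmQLFit and glmQLFTest, 1 mean per group over all 9 libraries), two-sided. The thresholds were those of the study, a change of over 2 times and 0.05 for the p-value after Benjamini-Hochberg adjustment. The test was not the study's, for which the paper names a one-way analysis of variance. Counts of called genes are therefore not comparable with the paper, which reports many changed genes at these thresholds. Standard errors were derived from the F statistic, and 95% intervals used its total degrees of freedom (residual plus prior). Levels are log2(CPM + 1). Alternatives used DESeq2 1.42.0 and limma 3.58.1, and the edgeR procedure was tested on simulated data.

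Same-numbered NGT and T1D mice deviated together from their group means across all tested genes (r = 0.599, 0.641 and 0.284), each over 0.1, and were taken as pairs in an alternative fit. Unlike-numbered NGT and T1D mice had r of 0.213 (T1D mouse 2 with NGT mouse 3) and otherwise of -0.707 to -0.020. Lira mouse 3 with NGT mouse 1 had r of 0.778, above every same-numbered value, so a high value does not by itself mark a pair. Lira mice did not pair with T1D mice (-0.286, 0.608 and 0.246) or with NGT mice (-0.291, 0.711 and -0.122). The labels state no shared litter or batch.

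All 34 genes are accounted for. Values in every mouse are given for the 4 genes of highest mean FPKM per stage and for those of the 34 genes and the other neutrophil list with an unadjusted p-value under 0.05 or without overlap between groups. Genes of other cell lists are given as counts and sums. *Hp* and *Anxa1* were added after their values were seen. The members and lists were chosen with earlier results of these data known, so the counts over them are descriptions. Promoter sequences are from RefSeq (GRCm38.p6) and were matched by symbol. Protein sequences were not used here. Whether the mice or only the libraries differ cannot be told from 1 library per mouse.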

Additional observations from a re-analysis of the deposited data

How the results depend on the processing

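Of the 34 genes, 0 were called in every setting tried, in each comparison. In T1D against NGT mice DESeq2 gave an adjusted p-value for only 4 of them. Unadjusted p-values under 0.05 numbered 1 of the 34 in Lira against T1D mice, and 0 with library size in place of TMM, with the library total without muscle genes, with only the 2 groups compared, with limma, and without the mice numbered 2 or without NGT mouse 2 and Lira mouse 3 (the last 2 settings chosen after seeing the data). Leaving out 1 mouse gave 0 to 1, and 0 in 5 of the 9 fits. The replicate block in the 2 groups gave 1 unadjusted p-value under 0.05 (*Anxa1*, not called) in T1D against NGT mice, where 14.2% of all tested genes passed. The block changed no call. Over all genes DESeq2 called 1, *Gpm6b*, in Lira against T1D mice.

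The median log2 fold changes moved with single mice. With 1 mouse left out, the primary median ranged from -1.15 to 2.21 in T1D against NGT, from -0.94 to 1.90 in Lira against T1D and from -1.16 to 3.57 in Lira against NGT mice. In the same order, the secondary median ranged from -0.58 to 1.85, -1.07 to 1.65 and -1.04 to 2.96, and the late median from -0.52 to 1.67, -1.10 to 1.40 and -0.91 to 2.59. Without NGT mouse 2 and Lira mouse 3 the primary, secondary and late medians were -0.94, -1.07 and -1.10 in Lira against T1D and -1.74, -1.54 and -1.48 in Lira against NGT mice. The difference of primary minus late level between groups moved by less than the pooled SD between mice in each setting, although in Lira against T1D mice it reached 0.45 without Lira mouse 2, above the T1D SD of 0.29.

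Log2 fold changes of single genes turned as well. With 1 mouse left out, in the order T1D against NGT, Lira against T1D and Lira against NGT, *Elane* ranged from -0.72 to 2.71, -1.21 to 1.74 and -1.28 to 3.80, *Ngp* from -0.48 to 2.24, -1.14 to 1.63 and -1.04 to 3.32, and *S100a8* from -0.71 to 1.87, -1.17 to 1.77 and -1.29 to 3.09. *Cebpb* ranged from -0.014 to 0.45 in T1D against NGT and *Ctsc* from -0.0093 to 0.086 in Lira against NGT mice. Without NGT mouse 2 and Lira mouse 3, the Lira against T1D and Lira against NGT values were -1.21 and -1.86 for *Elane*, -1.14 and -1.62 for *Ngp* and -1.17 and -1.87 for *S100a8*, *Ctsc* was -0.016 in Lira against NGT mice (-0.064 without the mice numbered 2), and *Ngp* was -0.48 in T1D against NGT mice (-0.018 with library size in place of TMM). In T1D against NGT mice *Elane* was 0.39 and *S100a8* 0.68 with the replicate block over 9 libraries, 0.92 and 1.03 with the block in the 2 groups, and 0.76 and 1.34 with limma. The cause was not tested.

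The smallest library was that of NGT mouse 1, and low counts limit the values of the mice numbered 2, in which 20 (NGT), 2 (T1D) and 4 (Lira) of the 34 genes had 3 counts or fewer.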
